A study of Homo sapiens with 2 samples.

Results

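A set of 10 germline genes was examined for NRF-1 occupancy: DAZL, DDX4, MAEL, SYCP1, SYCP3, TDRD1, TEX101, STK31, PIWIL1 and ASZ1. They were listed by name, as genes whose promoters are usually methylated in somatic cells, out of 19794 protein-coding genes. The naming rule itself used no binding value, although the set was drawn up with earlier results of these data known. The cells were U251, an established human glioblastoma line, given either a control siRNA (siControl) or an siRNA that depletes the transcriptional co-factor AATF (siAATF). Chromatin was immunoprecipitated with an NRF-1 antibody in both, and 1 peak list per condition was analysed, so no spread between replicates and no test between conditions could be computed. The series' design text names U138 cells where both sample labels name U251, and the labels were followed. Neither DNA methylation nor RNA was measured in these files, so the silent state of the genes in U251 was not checked.

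The transcription factor NRF-1 occupies GC-rich promoters, among them those of nuclear genes for mitochondrial proteins. Its recognition sequence holds CpG steps, and methylation of those cytosines is known to block binding. Germline genes are a classical group of CpG-containing promoters that are methylated at implantation and stay so in somatic tissues. Their products include proteins of the piRNA pathway, which restrains transposons, proteins of meiotic chromosomes, and regulators of translation in germ cells.

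In both lists a promoter peak was found for 1 of the 10 genes, MAEL, and in neither list for the other 9, a state shared by 37.7% of coding genes. A promoter peak is one that overlaps, by at least 1 base, the region within 1 kb of a protein-coding transcript start. Such a peak was present at 61.1% of coding genes in siControl and 60.7% in siAATF. Counting only peaks with a −log10 q of at least 5, MAEL remained the 1 gene of the 10, beside 51.5% of coding genes in either list. The MAEL peak lay at a distal alternative start, which it shares with the gene ILDR2, and 13.4 kb from the canonical MAEL start in siControl. At canonical starts alone, 0 of the 10 genes had a peak in either list, beside 58.5% of coding genes in siControl and 58.2% in siAATF. No peak lay anywhere in the bodies of the 9 other genes, which span from 10.8 kb at SYCP3 to 140.5 kb at SYCP1. The share of all coding genes without a peak in the body is not given here, so this count has no background.

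**Figure D1:**
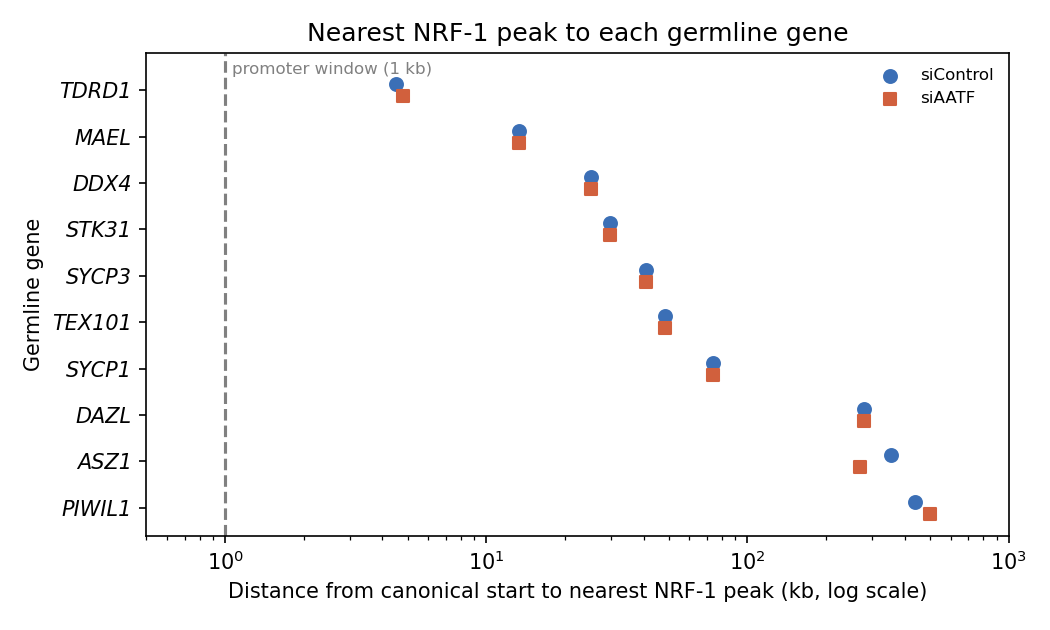
Distance in kb, on a log scale, from the canonical transcript start of each of the 10 genes to the nearest edge of the nearest NRF-1 peak, with siControl as circles and siAATF as squares. Every point lies to the right of the dashed line at 1 kb, from TDRD1 at 4.51 kb in siControl to PIWIL1 at 501 kb in siAATF.

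The promoter sequences were searched for the palindromic NRF-1 core GCGCATGCGC, which reads the same on both strands and holds 2 CpG steps, with up to 1 mismatch within 1 kb of any coding start. Such a match was present in 18.3% of all coding promoters and an exact one in 2.75%. Among the 10 genes it was found at ASZ1, MAEL and TEX101. The sites are printed here 5′ to 3′ on the strand of the gene, from the GRCh37 (hg19) sequence, with the core in capitals, since they are the candidate binding positions in these promoters. Substitutions are given against the core, counted from 1 at its 5′ base. At ASZ1 (chr7:117067565-117067665, minus strand) an A5C variant of the core and the exact core lay 71 bases apart, the latter starting 27 bases upstream of the canonical start:
ASZ1: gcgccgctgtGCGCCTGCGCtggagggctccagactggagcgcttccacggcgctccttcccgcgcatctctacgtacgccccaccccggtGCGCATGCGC
At MAEL a T6G variant started 21 bases upstream of the canonical start (chr1:166958486-166958515, plus strand), in the UTR of a second MAEL transcript, and a G7C variant lay at the distal start (chr1:166944724-166944753, plus strand):
MAEL canonical: cgggctgcgtGCGCAGGCGCctacctctgt
MAEL distal: gcgctcggcgGCGCATCCGCatgcccaggc
At TEX101 a C2A variant, which keeps 1 of the CpG steps, started 159 bases upstream of the canonical start (chr19:43918873-43918902, plus strand):
TEX101: ctcaccttccGAGCATGCGCaccctccgag
Of these 5 sites, only the distal one at MAEL was covered by a peak, and it was covered in both lists. By gene, 1 of the 3 with a match had a promoter peak, beside 87.9% of coding genes with a match in siControl and 87.2% in siAATF.

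The remaining 7 genes held no match to the core, at up to 1 mismatch, in their promoter windows. Words further from the core were not counted. Such words include ACGCAGGCGC at STK31, ACGCCTGCGC at SYCP3 and GCGCAGGCGT at TDRD1, all in the 120 bases before the canonical start. In those 120 bases the promoters of the 7 genes held from 8 CpG steps at SYCP1 to 14 at PIWIL1. Within 500 bp of that start they held from 39 at TDRD1 to 91 at PIWIL1, beside a median of 67 over coding genes. The CpG-rich and the CpG-poor end of the 120-base range are shown by PIWIL1 (chr12:130822312-130822431, plus strand), DAZL (chr3:16646931-16647050, minus strand, 13 CpG) and SYCP1 (chr1:115397364-115397483, plus strand), with each CpG in capitals:
PIWIL1: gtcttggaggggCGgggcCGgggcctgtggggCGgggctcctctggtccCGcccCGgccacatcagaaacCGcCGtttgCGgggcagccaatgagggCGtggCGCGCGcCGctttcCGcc
DAZL: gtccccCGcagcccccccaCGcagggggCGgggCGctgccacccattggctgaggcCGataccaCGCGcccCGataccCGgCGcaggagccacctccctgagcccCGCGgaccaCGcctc
SYCP1: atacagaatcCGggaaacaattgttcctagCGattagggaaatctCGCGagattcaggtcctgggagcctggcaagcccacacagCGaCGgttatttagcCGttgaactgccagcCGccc
No part of these stretches lay in a called peak in either list, and no match to the core says only that these letters are absent from the window.

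The piRNA genes were described first. PIWIL1, an Argonaute-family protein that binds piRNAs, starts at 130822432 on chromosome 12, and its nearest peak was 438 kb away in siControl and 501 kb away in siAATF. The siControl peak was weak, with a fold enrichment over the library's own background of 3.31 and a −log10 q of 1.30. Read depth was unknown, so −log10 q values of the lists, here and below, are not on a common scale. The siAATF peak was the STX2 promoter peak, with a −log10 q of 80.3. ASZ1, a protein of the germ granules in which piRNAs are made, starts at 117067547 on chromosome 7. Despite its exact core, its nearest peaks were 354 kb away in siControl and 269.6 kb away in siAATF, both in the body of ST7 and both weak, with a −log10 q of 1.87 and 1.99.

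TDRD1, a Tudor-domain scaffold that binds PIWI proteins, starts at 115939112 on chromosome 10 and came closest to a peak. The peak at the start of CCDC186 lay 4.51 kb upstream in siControl and 4.80 kb upstream in siAATF. Its −log10 q was 8.72 in siControl, over 1030 bp, and 16.9 in siAATF, over 479 bp. MAEL, which acts in piRNA-directed transposon silencing, starts canonically at 166958517 on chromosome 1 and is described further below.

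The genes of the synaptonemal complex, which holds paired chromosomes together in meiosis, were both without a promoter peak. SYCP1, its transverse filament protein, starts at 115397484 on chromosome 1. Its nearest peak was that of the SIKE1 promoter, 73.7 kb upstream in both lists, with a −log10 q of 44.6 in siControl and 43.4 in siAATF. SYCP3, a component of the lateral element, starts at 102133240 on chromosome 12. Its nearest peak was that of the CHPT1 promoter at 40.9 kb in both lists, with a −log10 q of 6.63 and 7.22, respectively.

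The other genes act in germ cell RNA control or are testis proteins. DAZL, an RNA-binding protein that controls translation, starts at 16646930 on chromosome 3. Its nearest peak was the weak PLCL2 promoter peak, 279 kb away in both lists, with a −log10 q of 3.41 in siControl and 3.55 in siAATF. DDX4, the RNA helicase known as VASA, starts at 55033889 on chromosome 5, and its nearest peak, at the SLC38A9 promoter, was 25.3 kb upstream in both lists. STK31, a Tudor-domain protein with a kinase-like domain, starts at 23749838 on chromosome 7. The strong FAM221A promoter peak lay 29.7 kb upstream of it in both lists, with a −log10 q of 68.6 in siControl and 56.9 in siAATF. TEX101, a surface glycoprotein of germ cells, starts at 43919042 on chromosome 19, and its nearest peak, in the body of LYPD3, was 48.3 kb downstream in both lists.

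The regions around the 10 genes were thus not empty of peaks. The nearest other coding gene had a promoter peak in 6 of 10 cases in each list, close to the share of all coding genes. These were SLC38A9, ILDR2, SIKE1, GNPTAB, CCDC186 and FAM221A. The ILDR2 peak is the same peak that was counted for MAEL, so it is not a separate one. The nearest GNPTAB start was 20.6 kb from that of SYCP3, but the GNPTAB promoter peak lay at another of its starts, farther from SYCP3 than the CHPT1 peak. Over the 7699 coding genes without a promoter peak in siControl, the median distance from any coding start to the nearest peak was 55.5 kb, beside 48.3 kb over the 9 germline genes. In siAATF the medians were 55.3 kb and 48.3 kb. In distance to the next peak the 9 genes were therefore near the median of genes without a promoter peak.

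The single promoter peak in the set was examined in detail. In siControl it spanned 166944347 to 166945132 on chromosome 1 (786 bp), with a fold enrichment of 8.44 and a −log10 q of 25.7. In siAATF it spanned 166944428 to 166945223 (796 bp), with 7.26 and 17.03. Its percentile rank by fold enrichment, where 100 is the top peak of the list, was 85.5 in siControl and 75.7 in siAATF. That change of −9.87 points was larger than the median absolute change of 5.12 over the 11774 genes with a promoter peak in both lists. Of those genes, 26.5% changed by at least as much, and without replicates the change has no error.

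The MAEL peak also covered the start of ILDR2, which encodes an immunoglobulin-domain receptor and is transcribed in the other direction. The peak midpoint was 80 bp from the distal MAEL start in siControl, where an ILDR2 start was nearer, and 6 bp from it in siAATF, where the MAEL start was nearer. The lists do not tell which of the genes a peak at a shared promoter serves. The site 21 bases upstream of the canonical MAEL start had no peak in either list.

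**Figure D2:**
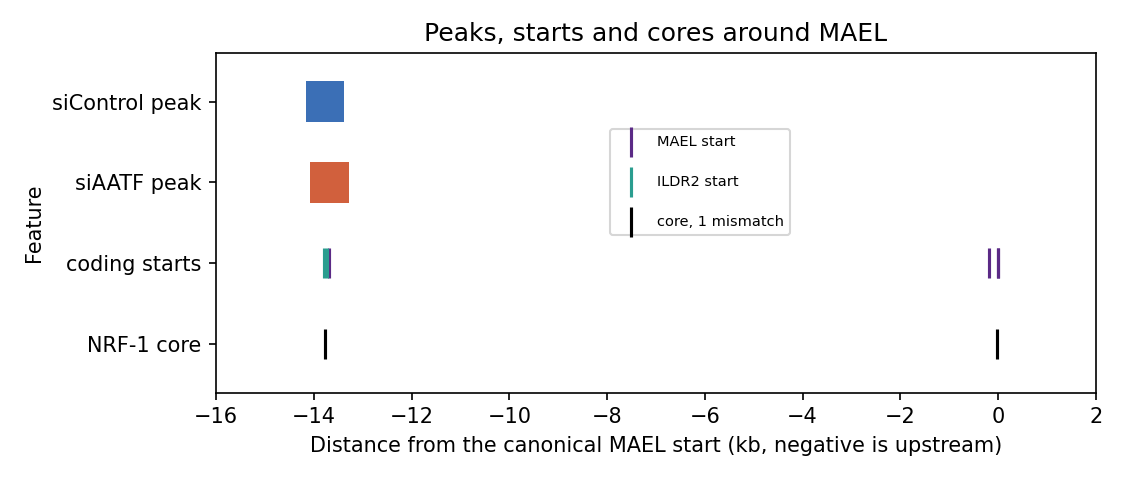
Map of the MAEL locus by distance in kb from the canonical MAEL start, with the siControl and siAATF peaks as bars, the coding starts of MAEL and ILDR2 as ticks in the third row and matches to the NRF-1 core with 1 mismatch as ticks in the fourth. Both peaks sit at the distal start, 13.4 kb and 13.3 kb from the canonical start, where a core match has no peak.

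The share of promoters with a peak rose steeply with the CpG observed/expected ratio, so the 10 genes were set beside promoters of like ratio. The CpG observed/expected ratio over 500 bp on each side of the canonical start had a median of 0.709 over the 10 genes, from 0.437 at TEX101 to 0.831 at STK31. Over 19515 coding genes the median was 0.727. The number of CpG steps in the same window ran from 37 at TEX101 to 91 at PIWIL1, with a median of 55, beside a median of 67 over coding genes.

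All coding genes were divided into 10 groups of equal size by this ratio. TEX101 lay in decile 3, where 19.6% of genes in siControl and 19.3% in siAATF had a peak at the canonical start. DDX4, SYCP1 and TDRD1 lay in decile 4, where the share was 59.3% in both lists. DAZL and MAEL lay in decile 5, with 74.8% and 75.3%. SYCP3, PIWIL1 and ASZ1 lay in decile 6, with 81.3% and 80.4%, and STK31 lay in decile 8, with 85.7% and 85.3%. None of the 10 had a peak there. For 9 of the 10 genes, most coding genes of the same decile did. The deciles match the ratio alone, not the number of CpG steps or the GC content. STK31 in decile 8, for example, held 54 CpG steps and 50.9% GC, beside medians of 67 and 61.4% over coding genes.

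**Figure D3:**
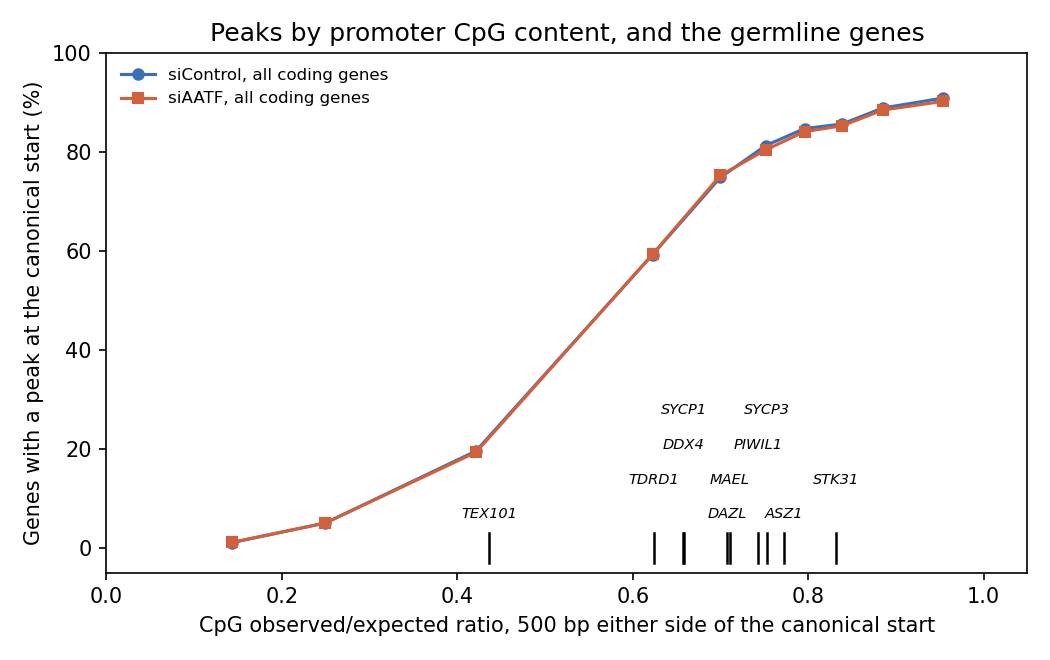
Percent of coding genes with an NRF-1 peak within 1 kb of the canonical start, plotted at the median CpG observed/expected ratio of each of 10 groups of equal size, with siControl as circles and siAATF as squares. The black ticks at the bottom mark the ratios of the 10 germline genes, from 0.437 at TEX101 to 0.831 at STK31, and none of these genes had a peak at its canonical start.

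The presence of the core was then considered. Of the 545 coding genes with an exact core in the promoter window, 91.2% carried a peak there in siControl (exact Clopper-Pearson 95% interval 88.5 to 93.4) and 90.8% in siAATF (88.1 to 93.1). These intervals, like the others here, cover counting error over genes or sites only, which are not replicates of a condition. With 1 mismatch the shares were 87.3% and 86.6% of 3075 genes, and with no match 55.1% and 54.7% of 16174 genes. Promoters with an exact core also held strong peaks, with a median percentile rank by −log10 q of 93.2 in siControl and 93.3 in siAATF. The median −log10 q itself was 71.2 in siControl and 63.9 in siAATF, so the raw value was lower in siAATF at a like rank. ASZ1, with its exact core, was among the 48 such genes without a promoter peak in either list. In decile 6 of the CpG observed/expected ratio, to which ASZ1 belongs, 59 of 61 genes with an exact core had a promoter peak in each list.

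The same was seen at the level of sites. Within 100 bp of a coding start, 87.0% (82.8 to 90.5) of 316 exact cores were covered by a siControl peak and 86.7% (82.5 to 90.3) by a siAATF peak. The variant word GCGCAGGCGC, present at the canonical start of MAEL and, as its reverse complement GCGCCTGCGC, at ASZ1, was covered at 86.5% (84.6 to 88.3) of 1365 promoter sites in siControl and 86.4% in siAATF. The word at TEX101 was covered at 75.8% of 269 promoter sites in siControl and 75.5% in siAATF. By contrast, the word in the distal MAEL peak, GCGCATCCGC, was covered at only 52.4% of 84 promoter sites in each list. The sites of ASZ1 and of the canonical MAEL start lay in no called peak, although most promoter sites with the same letters did.

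**Figure D4:**
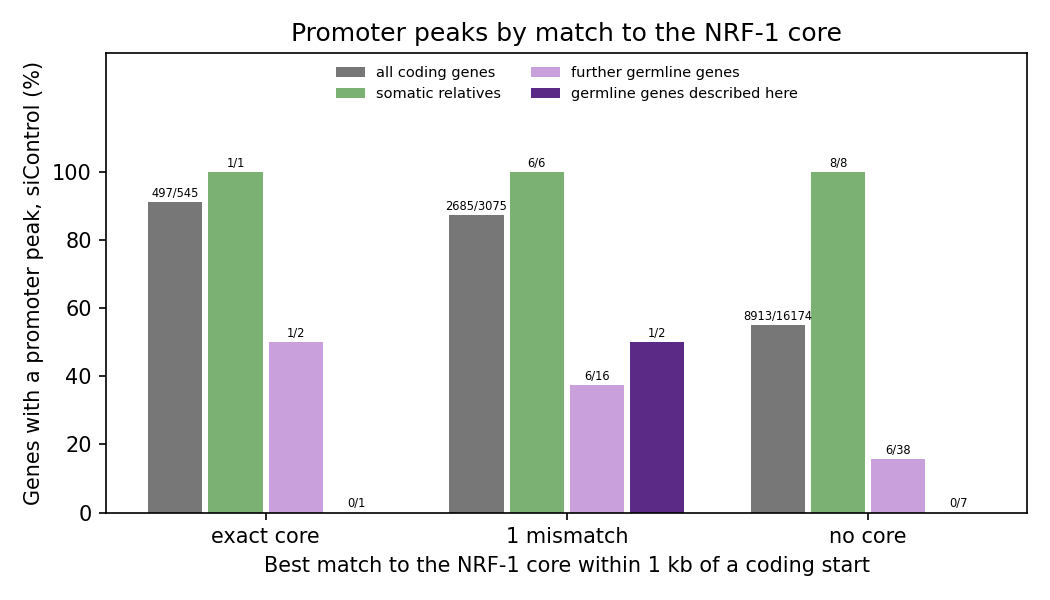
Percent of genes with a promoter peak in siControl, by the best match to the NRF-1 core within 1 kb of a coding start, with bars for all coding genes, somatic relatives, further germline genes and the 10 germline genes, and the number of genes with a peak over the number in the class above each bar. Among coding genes with an exact core 497 of 545 had a peak, whereas ASZ1, the 1 member of that class among the 10 genes, had none.

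Further germline genes were examined in lists set by function, with earlier results of these data known. Of 20 other genes of the piRNA pathway, 5 had a promoter peak in each list, and they were the same 5. This and the following counts stand beside the 61.1% of coding genes in siControl and 60.7% in siAATF. The strongest by −log10 q was at TDRD7, a Tudor-domain gene whose peak reached 99.1 in siControl and 80.7 in siAATF. In siControl it was followed by MYBL1, the A-MYB transcription factor, with 63.9, and PLD6, a mitochondrial protein of piRNA biogenesis, with 37.3. In siAATF PLD6, with 54.8, stood just above MYBL1, with 53.7. The other peaks were at TDRKH and at EXD1, where the start of CHP1 was nearer to the peak. Among the 15 genes without a peak in either list were PIWIL2, PIWIL3, PIWIL4, TDRD5, TDRD6, TDRD9, TDRD12, MOV10L1, GTSF1, HENMT1, FKBP6 and GPAT2.

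Of 26 genes of meiotic chromosomes, the promoters of 6 carried a peak in siControl and those of 5 in siAATF. The strongest in siControl was at SYCE2, a central element protein of the synaptonemal complex, with a −log10 q of 48.8 and 49.6 in siAATF. STAG3, the meiotic cohesin subunit, had 28.8 and 33.4, in a peak that also covered the GPC2 promoter, and TEX15 had 19.1 and 21.3. MEI1 was the only gene of this list with a peak in siControl alone, and that peak was weak, with a −log10 q of 1.32. The 20 genes with no peak included SYCP2, SYCE1, TEX12, C14orf39, HORMAD1, HORMAD2, SMC1B, REC8, RAD21L1, DMC1, MEIOB and SPO11.

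Of 10 further regulators of germ cell RNA, promoter peaks were called at 2 in siControl and at 3 in siAATF. DDX25, a testis RNA helicase, had a −log10 q of 35.4 and 32.4 in a peak shared with the PUS3 promoter, and NANOS1 had 11.99 and 13.2. NANOS2 had a peak in siAATF alone, with a −log10 q of 2.57. The 7 genes with no peak were BOLL, NANOS3, DND1, DPPA3, YBX2, RBM46 and ADAD1. Over the 3 lists, 13 of 56 genes (23.2%) had a promoter peak in each condition, and 12 of them in both, beside 59.5% of coding genes. Of the 18 with a core at up to 1 mismatch, 7 had a peak in siControl and 6 in siAATF, beside 87.9% and 87.2% of coding genes with such a core. The difference between conditions was thus 1 gene in each direction, MEI1 and NANOS2, without replicates. Where no other coding start was nearer to the peak, 10 of the 56 genes remained in siControl and 11 in siAATF. The shares of coding genes were then 54.5% and 54.1%. Among the 18 genes with a core, MSH5 on chromosome 6 had no promoter peak, and its nearest peak was 1649 kb away in both lists. No part of chromosome 6 was left out for these lists, and the part of read mapping at MSH5 was not tested.

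Somatic relatives of these genes were set beside them. All 15 had a promoter peak in both lists, the 7 with a core at up to 1 mismatch and the 8 without one alike. Their −log10 q in siControl ran from 7.40 at AGO2, with STAG2 at 7.45, AGO4 at 7.76 and AGO3 at 10.2, to 89.03 at DAZAP1. DAZAP1, an RNA-binding protein that interacts with DAZ proteins, had the highest value there and 77.6 in siAATF. RAD21 had 82.1 and 79.1, and STAG1 had 76.4 and 69.7, both being cohesin subunits of dividing cells. DDX3X, a somatic DEAD-box helicase of the family of DDX4, had 48.6 and 44.6. The relatives also had more CpG-rich promoters, with a median observed/expected ratio of 0.910, so that CpG content differed along with the lists, and its part in the difference was not tested.

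**Figure D5:**
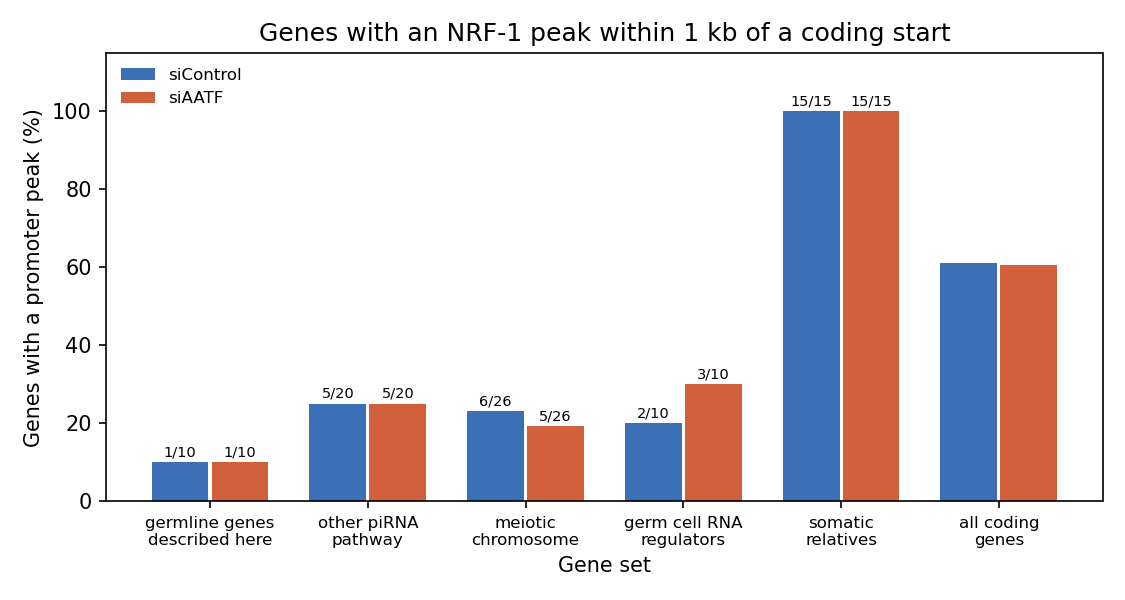
Percent of genes with an NRF-1 peak within 1 kb of a coding start in siControl and siAATF, with the number of genes with a peak over the list size above the bars of each gene list. The 10 germline genes had 1 of 10 in both conditions, the somatic relatives 15 of 15, and all coding genes 61.1% and 60.7%.

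Genes with the identical core were found both with and without a peak, also within the list of meiotic chromosomes. HORMAD1, a meiotic axis protein (chr1:150693337-150693366, minus strand), had no peak over its core in either list, like ASZ1, whereas SYCE2 (chr19:13030096-13030125, minus strand) and DDX3X (chrX:41193832-41193861, plus strand) had a peak over it in both. They are shown with the core in capitals and 10 bases on each side:
HORMAD1: ttgaaggaaaGCGCATGCGCgtcgggcaca
SYCE2: ggcggggtcgGCGCATGCGCagagggtgcg
DDX3X: tcgcggggacGCGCATGCGCgaatcccgac
The CpG observed/expected ratio was 0.709 at HORMAD1 and 0.772 at ASZ1, and 0.889 at SYCE2 and 0.977 at DDX3X. These are single examples. Over 44 genes with an exact core and a peak in neither list the ratio ran from 0.121 to 1.08, with a median of 0.654. These include chromosome Y genes of the same families, each counted singly, such as TSPY1 at 0.531 and PRY at the lowest value. Over 491 with a peak in both lists it ran from 0.171 to 1.10, with a median of 0.815.

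AATF depletion did not add a promoter peak at any of the 10 genes, nor remove one. Of coding genes in general, 1.17% carried a promoter peak in siAATF alone and 1.62% in siControl alone. With 1 list per condition and an unknown number of reads in each library, weaker occupancy under the calling threshold cannot be told apart from its absence.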

How the data were processed

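ChIPmentation libraries for NRF-1 from U251 cells (siControl and siAATF, 1 peak list each) were used. Per the study's methods, reads were aligned to hg19 with Bowtie2 and broad peaks were called with MACS2 in an ATAC-seq pipeline with its default settings. No input or IgG library was named, and whether the stated duplicates were pooled was not given. The authors deposited start and end in bp, a fold enrichment over local background (a ratio), a −log10 p and −log10 q, and a display score, which was deposited as 10 times the −log10 q and not used. Fold enrichment was ranked within its own list only. Read depth was unknown. An ATAC-seq pipeline may shift reads by the transposase offset, which moves peak edges slightly in both lists.

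Transcript starts came from GENCODE release 44 lifted to GRCh37, the build of the files, and sequence from GRCh37. Coordinates are 1-based. Overlap, core search, CpG content and Clopper-Pearson intervals were computed with Python 3.11.15, pandas 2.3.3, scipy 1.17.1 and pysam 0.24.0, and the overlap and core search were checked on simulated data. The 10 genes and all lists were chosen with earlier results of these data known. Named were all 10 genes, their nearest peaks, other starts at their peaks and, per further list, genes with a peak in 1 condition, the 3 strongest in siControl and up to 12 without a peak. Genes beyond that rule were named after their values were seen. They were TDRKH, EXD1, CHP1, GPC2, PUS3, HORMAD1 for its core, MSH5, DDX3X, AGO2, AGO3, AGO4, STAG2, GNPTAB and the other nearest coding genes. Alternatives were a −log10 q of at least 5, the 10000 peaks highest in −log10 q, windows of 500 bp and 2 kb, canonical starts, peak midpoints, peaks with no other coding start nearer, an exact core and ranking by −log10 q. The alternatives for somatic relatives, and the omission of chromosome Y and part of chromosome 6, were added after seeing the data.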

Additional observations from a re-analysis of the deposited data

How the results depend on the processing

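The number of the 10 genes with a promoter peak was 1 in each list under most settings. It was 0 in both lists with canonical starts alone, and 0 in siControl and 1 in siAATF where no other coding start was allowed nearer. Among genes with a core it was 0 in both lists with an exact core, with or without chromosome Y and chromosome 6 from 28 to 34 Mb. The counts of the further germline genes and somatic relatives stayed within 1.5 times. The share of all coding genes, in siControl and siAATF, was 51.5% and 51.5% with a −log10 q of at least 5, 44.9% and 44.7% with the 10000 peaks, 60.1% and 59.8% with 500 bp, 62.1% and 61.8% with 2 kb, 58.5% and 58.2% with canonical starts, and 54.5% and 54.1% with no other start nearer. Stricter settings remove peaks by construction. Of promoters with a core, 91.2% and 90.8% had a peak with an exact core (93.6% and 93.2% without the regions of chromosomes Y and 6), 89.6% and 89.0% with 500 bp, 86.7% and 86.1% with 2 kb, and 85.3% and 84.9% with a −log10 q of at least 5. By −log10 q the MAEL peak ranked 72.7 in siControl and 65.6 in siAATF, a change of −7.12 points. No paired analysis was possible because each condition had 1 list, and no replicate could be left out. Unknown depth limits what an absent peak can show.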

Other observations

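The genes that shared the pattern of ASZ1, an exact NRF-1 core in the promoter window and no promoter peak in either list, were collected with the values already known. There were 48 of 545. Of these, 9 lay on chromosome Y and 5 between 28 and 34 Mb on chromosome 6, regions with near-identical copies in the reference, and 16 siControl and 18 siAATF peaks were called on alternative haplotypes of chromosome 6. The part of read mapping in these absences was not tested. The other 34 were genes of many kinds, and no list of them was set or counted by function. They were not screened for copies elsewhere in the reference, so read mapping was not tested for them either. They held MAGED4 and MAGED4B, FAM27D1, FAM27E1 and FAM27E2, and SLC25A6 on chromosome X, whose nearest siControl peak was 1336 kb away. The genes named next were picked after their values were seen, and genes of their kinds were not counted among those with a peak. HORMAD1 belonged to a list examined above. SOHLH1, a transcription factor of early germ cells, had the core starting 85 bases upstream of a start and its nearest peak 2.18 kb away in siControl. MCMDC2, a meiotic recombination gene, had its nearest peak 53.7 kb away in both lists. PAGE5 and PAGE2B, cancer-testis genes of chromosome X that have close relatives, each had the core starting 22 bases upstream of a start, and the nearest siControl peaks were 58.6 kb and 74.4 kb away.

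The group also held CD248, COX6A2, KIF26A, MARVELD3, SSTR3, STAP2 and ZNF84, among others, and CHFR, a mitotic checkpoint gene, with the core starting 10 bases upstream of a start and a CpG observed/expected ratio of 0.928, and NNAT, an imprinted gene, with the core starting 14 bases upstream and a ratio of 0.843. SHISA2, with a ratio of 0.852, had its nearest peak about 169.6 kb away in siControl. The median ratio was 0.654 over the 44 genes of the group with a value, chromosome Y copies counted singly. It was 0.815 over 491 genes with an exact core and a promoter peak in both lists. DNA methylation at these promoters was not analysed here.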
